A study of Mus musculus with 4 samples.

Results

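The promoters of 9 proneural and Olig genes (Olig1, Olig2, Olig3, Bhlhe22, Neurog1, Neurog2, Neurog3, Neurod1 and Atoh1) were examined among 22367 protein-coding promoters in mouse embryonic stem cells. The genes were taken by name, and each was represented by reads within 1 kb of its gene-level transcription start site (TSS) in the GENCODE vM1 annotation of mm9. All 9 symbols matched 1 gene each. The cells were E14TG2a.4, an established feeder-independent embryonic stem cell line grown in serum with LIF. Chromatin immunoprecipitation followed by sequencing (ChIP-seq) gave 2 libraries with an antibody against Jarid1b, from cells labelled E14. It also gave 2 libraries of H3K4me3, the trimethylation of lysine 4 on histone H3. Of these, 1 came from cells carrying a pLKO.1 lentivirus for a Jarid1b short hairpin RNA (the Jarid1b shRNA library) and 1 from cells carrying the LKO scramble lentivirus (the scramble library), and transduced cells were selected with puromycin. The shRNA acts on a transduced population rather than on a null allele, and no control immunoprecipitation was used here.

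Basic helix-loop-helix (bHLH) factors of this group bind DNA as dimers with E proteins, at the E-box motif. They commit neural progenitors to neurons or, for Olig1 and Olig2, to the oligodendrocyte lineage. Notch signalling, through Hes repressors, holds them down in progenitors. Embryonic stem cells do not yet use these genes for neural development, and promoters of such regulators typically carry H3K4me3 together with Polycomb repression there. Jarid1b, the product of Kdm5b, is a demethylase that takes this mark off.

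After keeping 1 read per position and strand, the libraries held 4336767 reads (Jarid1b replicate 1), 1602370 (Jarid1b replicate 2), 2635705 (H3K4me3, Jarid1b shRNA) and 5158330 (H3K4me3, scramble). The 2 Jarid1b libraries shared fragments: 18.2% of the positions in replicate 2 were also in replicate 1, and 12 of the 86 fragments in the 9 windows were shared. They were therefore counted as 1 sample, and agreement between them says nothing of other cultures. Each H3K4me3 condition had 1 library, so differences between conditions have no replicate check, and all intervals cover counting error only. The Kdm5b promoter had 155 H3K4me3 reads in the Jarid1b shRNA library and 153 in the scramble library, but an shRNA acts on the transcript, so these reads do not check the knockdown. Of 8 stem cell marker promoters, 6 carried H3K4me3 in the Jarid1b shRNA library and 7 in the scramble library.

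Upstream sequence is shown for 4 of the genes whose readouts contrast: Olig1 and Neurog2 were called both for Jarid1b and for higher H3K4me3 with the Jarid1b shRNA, Neurog3 was called for Jarid1b without higher H3K4me3, and Neurod1 was called for neither. Each run is the 300 bases before the TSS on mm9, 5′ to 3′ on the strand of the gene, with E-boxes (CANNTG, the same on both strands) in capitals. They lie at chr16:91269714-91270013 (plus strand, Olig1), chr3:127335754-127336053 (plus, Neurog2), chr10:61595538-61595837 (plus, Neurog3) and chr2:79296909-79297208 (minus, Neurod1).
Olig1: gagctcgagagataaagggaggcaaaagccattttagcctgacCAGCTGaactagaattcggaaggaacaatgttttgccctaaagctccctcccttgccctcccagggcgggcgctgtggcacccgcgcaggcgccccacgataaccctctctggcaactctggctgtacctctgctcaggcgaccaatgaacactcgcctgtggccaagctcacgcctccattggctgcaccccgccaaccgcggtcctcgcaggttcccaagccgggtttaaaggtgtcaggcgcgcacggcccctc
Neurog2: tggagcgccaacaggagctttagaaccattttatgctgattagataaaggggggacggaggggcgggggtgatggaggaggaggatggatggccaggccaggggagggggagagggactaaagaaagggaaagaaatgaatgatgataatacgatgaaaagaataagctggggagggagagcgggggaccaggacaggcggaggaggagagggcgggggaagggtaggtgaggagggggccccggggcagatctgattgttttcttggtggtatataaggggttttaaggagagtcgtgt
Neurog3: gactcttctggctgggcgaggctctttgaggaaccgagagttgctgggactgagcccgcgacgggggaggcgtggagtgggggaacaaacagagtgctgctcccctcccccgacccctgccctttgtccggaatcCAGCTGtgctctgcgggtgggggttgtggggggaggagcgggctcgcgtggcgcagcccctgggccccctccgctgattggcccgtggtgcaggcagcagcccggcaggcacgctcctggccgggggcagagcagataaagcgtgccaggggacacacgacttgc
Neurod1: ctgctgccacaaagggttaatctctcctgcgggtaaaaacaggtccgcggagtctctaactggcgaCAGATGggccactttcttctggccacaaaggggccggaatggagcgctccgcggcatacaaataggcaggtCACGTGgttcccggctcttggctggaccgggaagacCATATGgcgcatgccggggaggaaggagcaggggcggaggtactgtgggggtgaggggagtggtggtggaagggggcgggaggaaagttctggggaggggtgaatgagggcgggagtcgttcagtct

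Neurod1 held 3 E-boxes in this stretch, Olig1 and Neurog3 held 1 each and Neurog2 held none. Over all 9 genes, 7 had at least 1 CANNTG, beside 70.4% of all promoters over the same length. The N-box CACNAG, searched on both strands as a motif of Hes proteins, was in none of the 9 stretches and in 41.3% of all promoters. The 2 kb windows were rich in CpG: GC content ran from 49.25% (Neurod1) to 63.6% (Neurog1) with a median of 58.7%, beside 51.15% over all promoters. The median ratio of observed to expected CpG was 0.682 in the 9 windows and 0.468 over all promoters. Olig1, Olig3, Bhlhe22, Neurog1 and Atoh1 are annotated with 1 exon, so their windows end inside that exon. The Neurod1 window also holds the TSS of Cerkl, 34 bases away on the same strand, and reads there cannot be assigned to 1 of the 2 genes. The windows of the other 8 genes hold no other annotated TSS.

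Jarid1b reads stood above background at most of these promoters, and 5 of the 9 were called enriched: Olig1, Bhlhe22, Neurog1, Neurog2 and Neurog3. A promoter was called when its reads exceeded whichever was larger, the genome rate or that of the flanking 10 kb on each side, in a one-sided Poisson test with Benjamini-Hochberg adjusted p below 0.05, in both Jarid1b libraries. Over all promoters, 7.97% were called by this rule. The median enrichment of the 9 was 3.39-fold in replicate 1 and 4.19-fold in replicate 2, beside 1.47-fold and 1.54-fold over all promoters. Replicate 1 alone called 8 of the 9, where it called 26.8% of all promoters, and replicate 2 alone called 5, where it called 10.7%.

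Among the Olig genes, Jarid1b was unevenly placed. Olig1, which acts in oligodendrocyte maturation, had 30 reads in replicate 1 and 17 in replicate 2 in its window at chr16:91269014-91271013, or 8.11-fold (95% Poisson interval 5.47 to 11.6) and 8.95-fold (5.21 to 14.3). Olig2, which specifies motor neurons and oligodendrocytes, had 21 and 10 reads at chr16:91224795-91226794, only 1.81-fold (1.12 to 2.77) and 1.75-fold (0.841 to 3.23) over its flanks, with adjusted p of 0.0333 and 0.248 in the Poisson test. Olig3, a factor of dorsal spinal cord progenitors, had 9 and 2 reads at chr10:19075366-19077365 and was called in neither library (adjusted p of 0.185 and 0.765).

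The flanks of Olig2 were themselves high. Within 5 kb on each side of its TSS, Olig2 had 92 reads in replicate 1 and 44 in replicate 2, or 5.43-fold (4.38 to 6.66) and 7.03-fold (5.10 to 9.43) over the genome rate. These were the highest of the 9 genes, and only 87 and 45 of all promoters had more reads over that span. The median promoter had 26 and 10 reads. At Olig1 the same span held 43 and 23 reads, most of them inside the promoter window. Measured against the genome rate alone, Olig2 and Atoh1 were also called, which makes 7 of the 9. That rule takes no account of flanks or GC content, and its share over all promoters is not given here.

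Bhlhe22, a factor of cortical and spinal neurons, had 21 and 9 Jarid1b reads in its window, or 6.19-fold (3.83 to 9.47) and 6.43-fold (2.94 to 12.2). The neurogenins followed. Neurog2, a determination factor of cortical and sensory neurons, had 32 and 11 reads at chr3:127335054-127337053, 4.57-fold (3.13 to 6.45) and 4.40-fold (2.20 to 7.87). Its relative Neurog1 had 26 and 15 reads at chr13:56352524-56354523, 3.51-fold (2.30 to 5.15) and 5.0-fold (2.80 to 8.25).

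Neurog3, known for specifying endocrine cells of the pancreas, had 21 and 13 reads at chr10:61594838-61596837, 2.53-fold (1.57 to 3.87) and 4.19-fold (2.23 to 7.17). Atoh1, the factor of cerebellar granule cells and inner ear hair cells, had 19 and 6 reads at chr6:64678140-64680139, 3.39-fold (2.04 to 5.30) and 3.53-fold (1.30 to 7.68), and fell short in replicate 2 with an adjusted p of 0.0654 in the Poisson test. Neurod1, which drives terminal neuronal differentiation, had 9 and 2 reads at chr2:79295908-79297907 and passed in replicate 1 alone (adjusted p of 0.0446 and 0.667). Ordered by reads in either library, neighbouring genes did not differ beyond counting error.

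**Figure D1:**
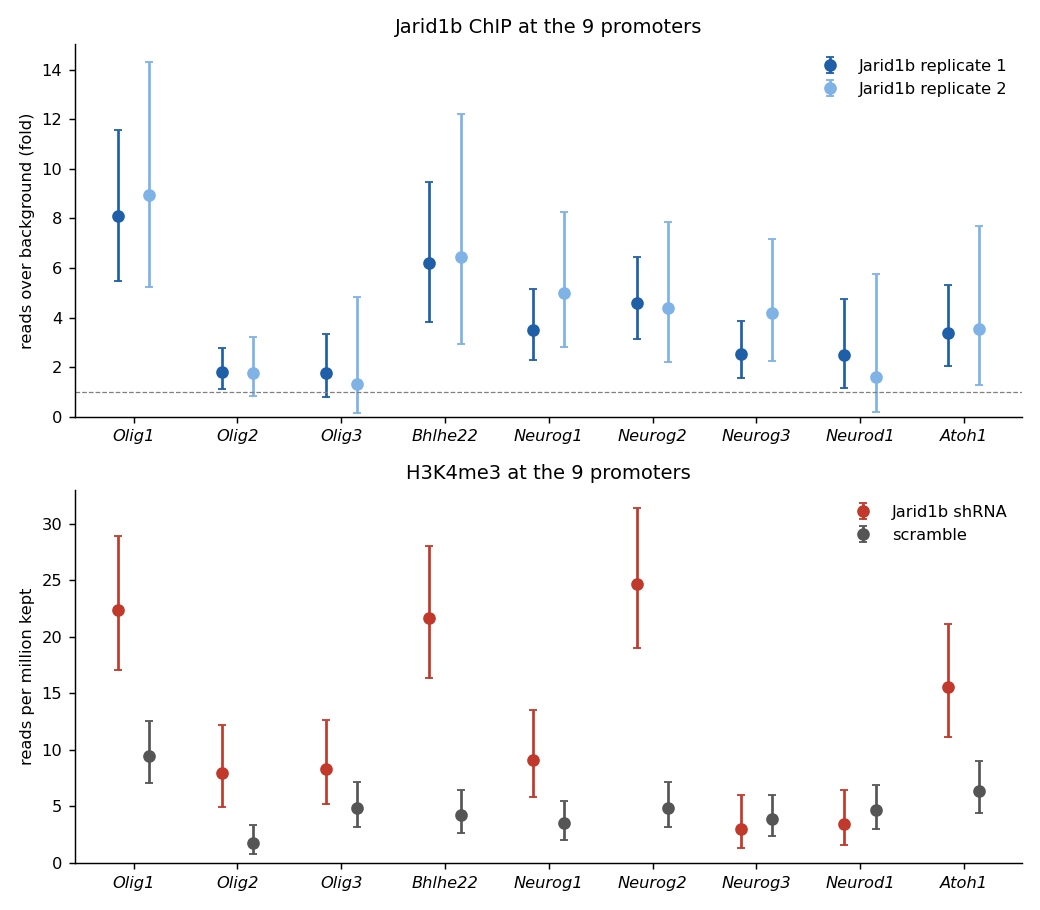
Upper panel: Jarid1b reads over background (fold, y axis) for each gene (x axis) in replicates 1 and 2, with the dashed line at 1-fold. Lower panel: H3K4me3 RPM in the Jarid1b shRNA and scramble libraries. Bars are 95% Poisson intervals. Olig1 and Bhlhe22 stand highest for Jarid1b, and Neurog2, Olig1, Bhlhe22 and Atoh1 highest for H3K4me3 in the Jarid1b shRNA library.

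Jarid1b reads in this series increase with GC content in regions away from promoters, from 0.441 reads per kb at the lowest to 5.92 at the highest GC class in replicate 1. Against background regions of the same GC content, the 9 windows had a median of 2.09-fold in replicate 1 and 2.497-fold in replicate 2, beside 1.19-fold and 1.15-fold over all promoters. With that background 3 of the 9 remained called in both libraries, namely Olig1 (2.79-fold and 4.04-fold), Neurog1 (2.25-fold and 3.27-fold) and Neurog3 (2.09-fold and 3.28-fold), where 0.545% of all promoters were called. Bhlhe22 and Neurog2 passed in replicate 1 and not in replicate 2, with Poisson adjusted p of 0.401 and 0.217 there.

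H3K4me3 passed the enrichment test at all 9 promoters in the Jarid1b shRNA library, where 59.9% of all promoters passed. In the scramble library 8 of 9 passed, where 60.0% of all promoters did. With windows of 500 bases or 2 kb on each side, 7 of the 9 passed in the Jarid1b shRNA library and 9 in the scramble library. The exception above was Olig2 in the scramble library, with 9 reads and an adjusted p of 0.0528 in the Poisson test. At an adjusted p threshold of 0.01, 8 of the 9 passed in each library. Neurog3 had 8 reads in the Jarid1b shRNA library. Against background regions of the same GC content that was 1.53-fold, with an adjusted p of 0.248 in the Poisson test. The 9 windows had a median of 9.11 reads per 1000000 reads kept (RPM) in the Jarid1b shRNA library and 4.65 RPM in the scramble library, beside 9.49 and 6.01 RPM over all promoters and 23.9 and 17.8 RPM over the 13273 promoters compared between the conditions. A promoter was compared when it was enriched in either library and had at least 20 reads over both, which all 9 passed.

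H3K4me3 was higher in the Jarid1b shRNA library at 6 of the 9 promoters and lower at none. The call required a ratio of at least 2-fold with an interval that excluded equality, and 24.0% of the compared promoters were called higher and 2.37% lower. The median log2 ratio of Jarid1b shRNA over scramble was 1.28 for the 9 genes, beside 0.41 for all compared promoters. It was 0.48 for the 10346 compared promoters within the same range of GC content. Those promoters share the range of the 9 genes and are not matched to their median GC content of 58.7%. With compared promoters split into 40 groups by GC content, the group around 58.75% had a median log2 ratio of 0.79.

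Neurog2 had the largest ratio, with 65 reads (24.7 RPM) in the Jarid1b shRNA library and 25 (4.85 RPM) in the scramble library, a log2 ratio of 2.35 (95% Clopper-Pearson interval 1.66 to 3.07). Bhlhe22 was close to it, with 57 reads (21.6 RPM) with the Jarid1b shRNA and 22 (4.26 RPM) with the scramble, a log2 ratio of 2.34 (1.61 to 3.12). Its scramble peak lay outside the window, from 1 to 1.5 kb after the TSS (29 reads). With windows of 2 kb on each side, the log2 ratio of Bhlhe22 was 1.75. Olig2 had 21 reads with the Jarid1b shRNA and 9 with the scramble, a log2 ratio of 2.19 (1.0 to 3.5) that rests on few reads. These 3 intervals lie at or above 1 on the log2 scale. Ordered by reads, neighbours differed beyond counting error in the Jarid1b shRNA library at Atoh1 over Neurog1 and at Olig2 over Neurod1, and no neighbours did in the scramble library.

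The other 3 called genes had smaller ratios. Neurog1 had 24 reads with the Jarid1b shRNA and 18 with the scramble (log2 ratio 1.38, 0.44 to 2.35). Atoh1 had 41 and 33 reads in the same order (1.28, 0.58 to 1.99). Olig1 carried the most H3K4me3 of the 9 in the scramble library and had 59 reads with the Jarid1b shRNA and 49 with the scramble (1.24, 0.67 to 1.81).

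For the remaining 3 genes the interval included equality. Olig3 had 22 reads with the Jarid1b shRNA and 25 with the scramble, a log2 ratio of 0.78 (−0.11 to 1.67). Neurog3 had 8 and 20 reads in the same order, a log2 ratio of −0.35 (−1.75 to 0.89). Neurod1 had 9 and 24 reads, a log2 ratio of −0.45 (−1.74 to 0.71). The intervals of Neurog3 and Neurod1 lie wholly below those of Neurog2, Bhlhe22 and Olig2.

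**Figure D2:**
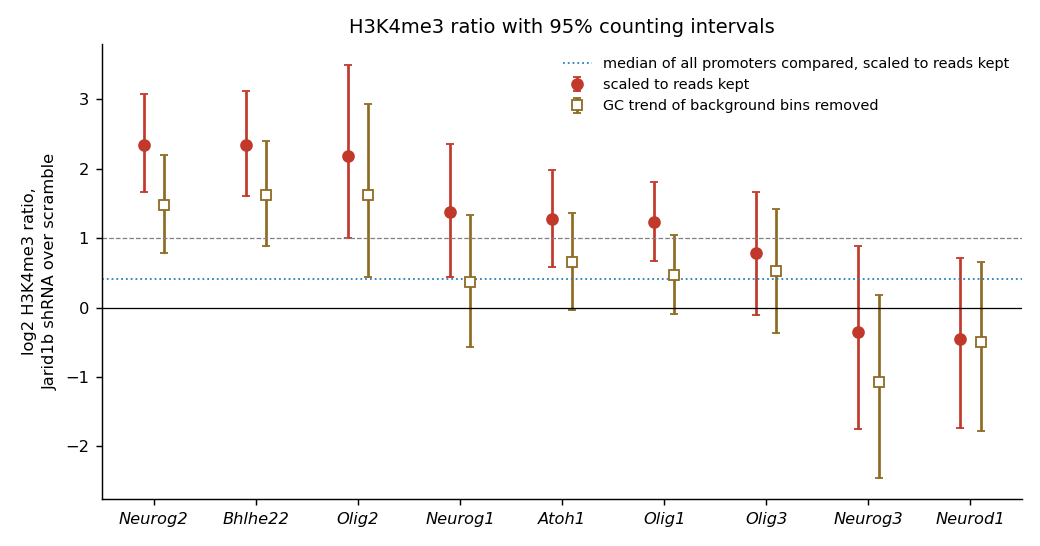
Log2 ratio of H3K4me3 reads, Jarid1b shRNA over scramble (y axis), for each gene in descending order (x axis), with 95% counting intervals. Filled circles are scaled to reads kept and open squares have the GC trend of background bins removed; the dashed line marks 2-fold and the dotted line the median of all compared promoters, 0.41. Neurog2, Bhlhe22 and Olig2 stay above 0 with both scalings.

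The ratio moved with GC content over all compared promoters (Spearman rho 0.628 over 13272 promoters, which are not replicates). With the GC trend of background bins removed, an adjustment chosen after seeing the data, 3 of the 9 genes remained called higher, namely Neurog2 (1.47), Bhlhe22 (1.62) and Olig2 (1.62), where 7.03% of compared promoters were (4.00% lower). Olig1 then stood at 0.48 (−0.10 to 1.05), Neurog1 at 0.37 and Atoh1 at 0.66. The same 3 genes were called with scaling to the median of all promoters, where 12.0% of compared promoters were higher and 8.99% lower, and with the promoter GC trend removed, where 7.08% were higher and 2.88% lower. Scaling to background bins called 7 of the 9, with Olig3 added at 1.02, where 33.5% of compared promoters were higher and 0.912% lower. No scaling called any of the 9 lower. The part of GC content in the differences between libraries was not tested.

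**Figure D3:**
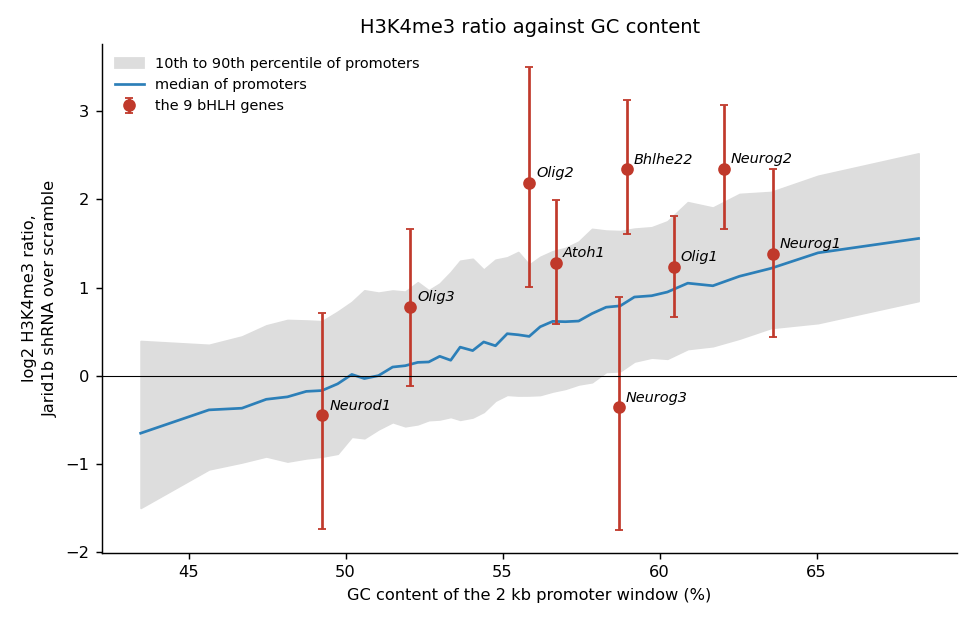
Log2 H3K4me3 ratio, Jarid1b shRNA over scramble (y axis), against GC content of the 2 kb window (x axis). The line and band give the median and the 10th to 90th percentile of compared promoters in 40 groups of GC content, and points are the 9 genes with 95% counting intervals. Olig2, Bhlhe22 and Neurog2 lie above the band, Neurog3 below it, and Neurog1 and Olig1 near the line.

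A higher Jarid1b enrichment did not go with a uniformly higher H3K4me3 ratio. Across the 9 genes the log2 pooled Jarid1b enrichment and the log2 H3K4me3 ratio correlated with r = 0.35 (Pearson) and rho = 0.45 (Spearman), given as a description with n = 9, since the points share libraries and base composition. GC content had a Spearman rho of 0.78 with Jarid1b enrichment and 0.58 with the H3K4me3 ratio. Neurog3 was called for Jarid1b and had a negative ratio, while Olig2 and Atoh1 were called higher for H3K4me3 and not called for Jarid1b. Those 2 genes were not without Jarid1b reads, and both were called against the genome rate alone. Atoh1 missed the main call in replicate 2 only. Olig2 enters the correlation at 1.79-fold over its high flanks, where it was 6.68-fold over the genome rate. The 5 genes called for Jarid1b had a median log2 ratio of 1.38, with single genes from −0.35 to 2.35. The other 4 had a median of 1.03, with single genes from −0.45 to 2.19.

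Within the windows most reads lay downstream of the TSS, in the 5′ part of the gene. H3K4me3 had 81.7% of its reads there in the Jarid1b shRNA library (250 of 306, 95% exact binomial interval 76.9 to 85.9) and 82.2% in the scramble library (185 of 225, 76.6 to 87.0). Jarid1b had 70.2% downstream in replicate 1 (63.1 to 76.6) and 74.1% in replicate 2 (63.5 to 83.0). These intervals are for reads summed over the 9 genes and do not measure the spread between genes. The share over all promoters is not given here. Bhlhe22 had all 57 reads downstream in the Jarid1b shRNA library and 20 of 22 in the scramble library, and Olig3 had 22 of 22 and 23 of 25 in the same order. Neurog1 and Olig2 differed from this pattern, with 12 of 24 and 8 of 21 reads downstream in the Jarid1b shRNA library and 8 of 18 and 4 of 9 in the scramble library.

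In bins of 500 bases tested as the promoters were, the enriched stretch that touched the TSS had a median width of 1 kb over the 9 genes in both H3K4me3 libraries, beside 1 kb in the Jarid1b shRNA library and 1.5 kb in the scramble library over compared promoters. With the scramble library thinned at random to the depth of the Jarid1b shRNA library, its median was 500 bases over the 9 genes and 1 kb over compared promoters. Such a stretch was present at 6 of the 9 genes in the Jarid1b shRNA library (57.8% of all promoters) and at 7 in the scramble library (58.0%). Neurog2 reached 2 kb in the Jarid1b shRNA library and 1.5 kb in the scramble library. Neurog1 reached 1 kb and 0.5 kb in that order, and Olig2 reached 0.5 kb in the Jarid1b shRNA library with no enriched bin at the TSS in the scramble library. Olig3 had no such bin in the Jarid1b shRNA library and 1.5 kb in the scramble library.

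**Figure D4:**
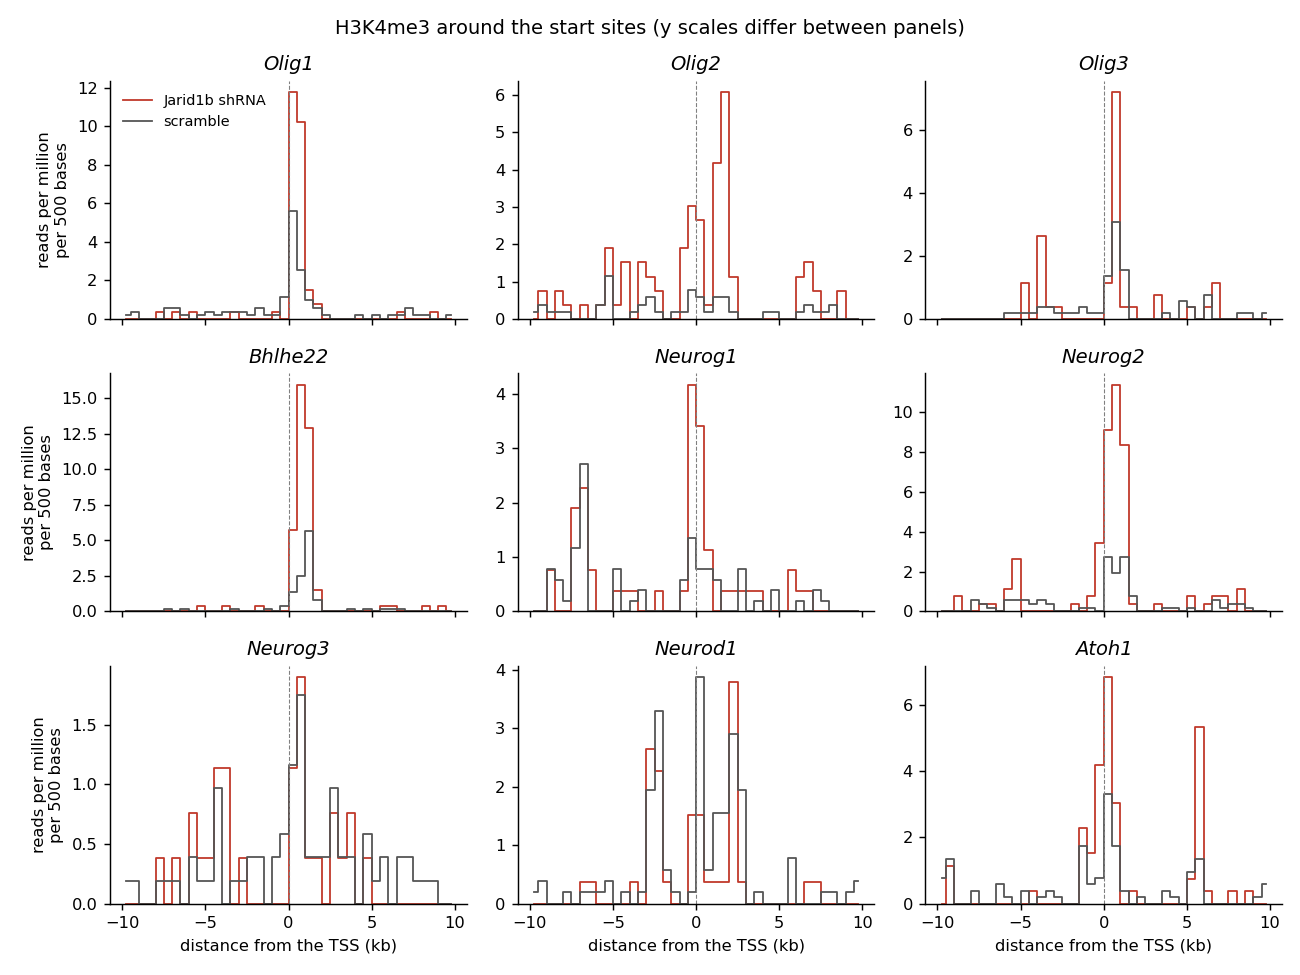
H3K4me3 RPM in bins of 500 bases (y axis, scaled per panel) against distance from the TSS in kb (x axis, in the direction of transcription) for each gene, in the Jarid1b shRNA and scramble libraries. In the Jarid1b shRNA library peaks stand within 1 kb after the TSS at Olig1, Bhlhe22 and Neurog2, and Olig2 has a second peak from 1 to 2 kb. In the scramble library the Bhlhe22 peak stands from 1 to 1.5 kb, and Neurod1 has 3 peaks.

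Outside the promoter windows, 12 runs of bins enriched in either H3K4me3 library lay within 10 kb of the TSS of 7 of the genes. Of all bins within 10 kb of a TSS, 4.85% were enriched in the Jarid1b shRNA library and 5.65% in the scramble library. A run that entered through 1 library alone was favoured to be higher there, so the ratios of these runs are descriptions. Such was the run from 1 to 2 kb after the Olig2 TSS, enriched in the Jarid1b shRNA library alone, inside the gene at chr16:91226795-91227794, with 27 reads in the Jarid1b shRNA library and 6 in the scramble library, a log2 ratio of 3.14 (1.83 to 4.71). The same bins held 21 and 8 Jarid1b reads. A run 5.5 to 6 kb after the Atoh1 TSS, where no gene is annotated, had 14 reads in the Jarid1b shRNA library and 7 in the scramble library (1.97, 0.56 to 3.52). Bhlhe22 had 34 and 29 reads from 1 to 1.5 kb in the same order (1.20, 0.44 to 1.96).

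Neurod1 lay between 2 further runs that did not differ beyond counting error. The run from 2 to 3 kb before its TSS, in the lincRNA Gm17325, had 13 reads with the Jarid1b shRNA and 27 with the scramble (−0.09, −1.16 to 0.92), and the run from 2 to 3 kb after it, within 1 kb of the TSS of Gm17325, had 11 and 25 (−0.22, −1.39 to 0.86).

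Over the span of 5 kb on each side, Olig2 kept a log2 ratio of 2.29 (1.61 to 3.01), with 65 reads in the Jarid1b shRNA library and 26 in the scramble library. Over that span without the promoter window its ratio was 2.34 (1.5 to 3.24). Bhlhe22 was the other gene whose surroundings were above 0, at 1.08 (0.40 to 1.77). Olig1 had 7 reads there with the Jarid1b shRNA and 24 with the scramble (−0.81, −2.27 to 0.45), so its higher H3K4me3 lay inside the window. The median of the 9 genes without the window was 0.06, which was also the median of compared promoters.

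Olig2 and Olig1 are neighbours on chromosome 16, with start sites 44219 bases apart and no other gene annotated between them. From 5 kb after the Olig2 TSS to 5 kb before the Olig1 TSS, H3K4me3 had 52 reads in the Jarid1b shRNA library and 132 in the scramble library, a log2 ratio of −0.38 (−0.87 to 0.10). A block between the genes, chosen after its values were seen, began 23 kb after the Olig2 TSS, where the first 1 kb held 7 reads (2.66 RPM) with the Jarid1b shRNA and 29 (5.62 RPM) with the scramble. Jarid1b had 2 and 0 reads in that kb. Scaled to reads kept, H3K4me3 was higher in the Jarid1b shRNA library at both ends of the locus and not across it. With the GC trend of background bins removed, Olig2 remained called (1.62) and Olig1 did not (0.48, −0.10 to 1.05). The ratio between the genes was not adjusted for GC content.

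**Figure D5:**
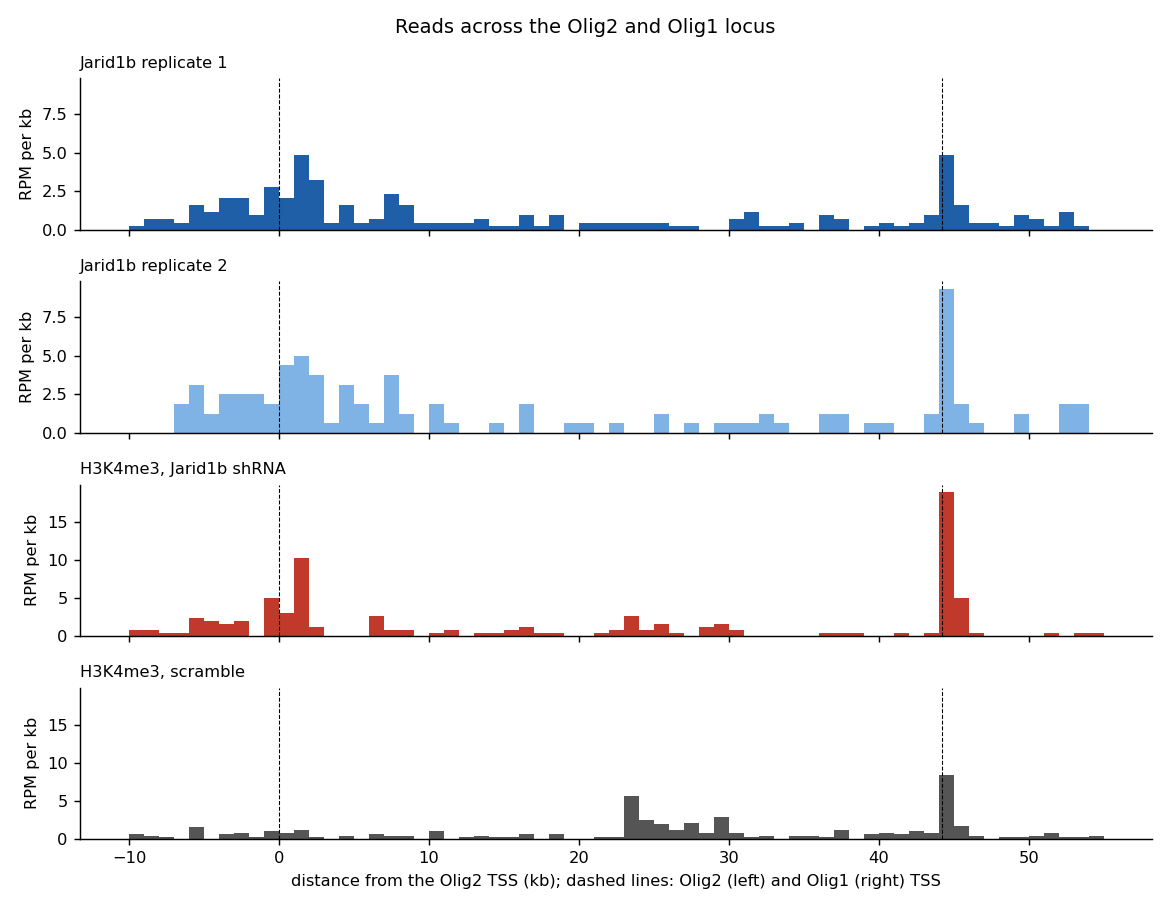
RPM per kb (y axis) across the Olig2 and Olig1 locus against distance from the Olig2 TSS in kb (x axis), for Jarid1b replicates 1 and 2 and for H3K4me3 in the Jarid1b shRNA and scramble libraries; dashed lines mark the TSS of Olig2 (left) and Olig1 (right). Jarid1b forms a broad low block around Olig2 and a narrow peak after the Olig1 TSS, and the H3K4me3 block from 23 kb is taller in the scramble library.

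Other genes of the pathway were read from 4 lists. Of 15 other neural bHLH genes, 5 were called for Jarid1b (7.97% of all promoters were), and of the 9 compared for H3K4me3, 5 were called higher (24.0% of compared promoters were) and none lower. The median log2 ratio of those 9 was 1.19. Ptf1a, a factor of cerebellar inhibitory neurons and pancreas, had 5.11-fold and 4.21-fold Jarid1b enrichment and a log2 ratio of 1.75 (0.93 to 2.60). With the GC trend of background bins removed 1 of the 5 remained called, Bhlhe23 (1.04), where 7.03% of compared promoters were called. Ptf1a then stood at 0.85. Bhlhe23, a relative of Bhlhe22, had 3.08-fold and 4.81-fold enrichment and a ratio of 1.88 (0.95 to 2.85).

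A list of 7 genes held E proteins, the dimer partners, and Id proteins, which bind E proteins without binding DNA. None was called for Jarid1b in both libraries, near the share of 7.97% over all promoters. Id4 had 5.38-fold and 3.57-fold Jarid1b enrichment and Tcf12 had 5.01-fold and 2.40-fold. Each of them passed in replicate 1 and not in replicate 2. For H3K4me3, 2 of the 7 were called higher, near the share of 24.0% over compared promoters. The median log2 ratio of the 7 was 0.38. The 2 were Id4 (1.29, 0.87 to 1.72) and Tcf12 (1.19, 0.81 to 1.57), and with the GC trend of background bins removed neither was called. Of 9 Hes and Hey genes, the repressors downstream of Notch, 3 were called for Jarid1b (7.97% of all promoters were). Of the 7 compared, 4 were higher (24.0% of compared promoters were), with a median of 1.04. Hes1 had 1.55 (1.10 to 2.02) and 1.25-fold and 1.67-fold Jarid1b enrichment, Hes5 had 1.42 (0.79 to 2.06) with 2.99-fold and 3.43-fold, and Hey2 had 0.29 (−0.23 to 0.81) with 5.01-fold and 4.79-fold.

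Of 12 targets of proneural and Olig factors, 1 was called for Jarid1b, near the share of 7.97% over all promoters. Of the 7 compared, 4 were higher (24.0% of compared promoters were), with a median of 1.02. Insm1, a zinc finger gene of neuronal and endocrine progenitors, had a log2 ratio of 1.89 (1.31 to 2.49) with 5.76-fold and 1.84-fold Jarid1b enrichment. Sox10, of the oligodendrocyte lineage, had 1.31 (0.26 to 2.39) and was the 1 called for Jarid1b, and Stmn2, a gene of growing neurons, had −0.76 (−1.47 to −0.10). No gene of the 3 lists beyond the bHLH genes was called higher with the GC trend of background bins removed, beside 7.03% of compared promoters. Few genes of these lists were compared, so that count lies near the share.

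The promoters whose levels in the 4 libraries lay nearest to the median of the 9 genes were Bhlhe41 (Euclidean distance 0.202 on the log2(RPM + 0.2) scale), Dapk2 (0.239), Gm13289 (0.261), Gm13278 (0.342) and Wnt3a (0.351). Wnt3a, a secreted Wnt ligand, had 3.11-fold and 2.94-fold Jarid1b enrichment and a log2 ratio of 1.24 (0.30 to 2.20). Of the 9 genes Neurog1 lay nearest to that median, at 0.755, with 83 promoters nearer, and Neurod1 farthest, at 2.80 with 4861 nearer.

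Markers of other cell states were read in the same libraries. Over the 8 stem cell markers the summed H3K4me3 was 207 RPM in the Jarid1b shRNA library and 281 RPM in the scramble library. Of their 7 compared promoters 3 were lower and none higher, beside 2.37% and 24.0% of all compared promoters. Esrrb had 0 reads in the Jarid1b shRNA library and 3 in the scramble library. Its window was enriched in neither library and was not compared. Over 3 endoderm markers the sum was 17.1 RPM and 7.75 RPM in the same order, with 2 of 2 compared promoters higher. With the GC trend of background bins removed, 1 of these 2 remained called, where 7.03% of compared promoters were. Over 3 neural progenitor markers the sum was 18.6 RPM and 8.34 RPM, with H3K4me3 at 1 of 3 in both libraries. The 1 compared promoter of this list was called higher, but not with the GC trend of background bins removed. Over 3 neuronal markers the sum was 22.8 RPM and 14.9 RPM, with none called. Dcx, also among the 12 targets above, had 0 reads in the Jarid1b shRNA library and 1 in the scramble library. Over 4 fibroblast markers the sum was 38.3 RPM and 40.5 RPM, with none called, and Col3a1 had 0 and 2 reads. The part of a change in cell state in the higher H3K4me3 of the bHLH genes was not tested, and in bulk chromatin more cells with the mark and more of the mark per cell cannot be told apart.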

How the data were processed

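The authors deposited 1 row per aligned read for each of 4 libraries. Tags were mapped to mm9 with Bowtie, per the submitters' processing notes, with no version stated there. The labels' protocols also describe 1 match per position, MACS peaks and IgG normalization, but the deposited rows repeat positions and hold a score of 0 in every row, so they precede those steps. The NCBIM37 genome underlies mm9 and held all read ends except 5 of the Jarid1b shRNA library.

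Reads on the autosomes and sex chromosomes were kept once per strand and 5′ position, and 5′ ends were moved 75 bases towards the fragment centre. Minus-strand Jarid1b reads lie 1 read length to the left of those of the other libraries, and moving them was an added alternative. Windows spanned 1 kb on each side of the TSS. Fold is reads over the larger of the genome rate (on bases other than N) and the rate in the adjoining 10 kb on each side. Enrichment used a one-sided Poisson test with Benjamini-Hochberg adjustment over all promoters. H3K4me3 ratios are of RPM, with Clopper-Pearson intervals conditional on the summed reads. GC background came from 14 classes of 1 kb bins over 5 kb from any TSS, without H3K4me3 and with fewer than 30 reads. Reads carry no molecular identifiers, so intervals cover counting error only. Procedures were tested on simulated data.

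The members and lists were chosen with earlier results of these data known. All 9 genes are named. From each other list, 2 genes are named for pooled Jarid1b enrichment (the top ones) and 2 for the size of the H3K4me3 log2 ratio, with the 5 promoters nearest in pattern. A gene and a sequence that these rules also pick are not reported here. Marker genes of other cell states that are named were at 0 reads in a library. Analyses used Python 3.11.15, NumPy 2.4.6 and SciPy 1.17.1.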

Additional observations from a re-analysis of the deposited data

How the results depend on the processing

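Under 14 alternatives the number of the 9 genes called for Jarid1b ranged from 3 to 8. It was 3 with windows of 500 bases on each side (Olig1, Bhlhe22 and Neurog2) and 3 with the GC background, 8 with the reads of both libraries pooled and 8 with shared fragments counted once, and 5 to 8 when either Jarid1b library was left out. Of all promoters, 0.545% were called with the GC background, 26.8% by replicate 1 alone and 10.7% by replicate 2 alone. The shares under the other alternatives are not given here, so those counts cannot be set against all promoters. Counting shared fragments once, pooling with the GC background (7) and moving minus-strand reads by 1 read length (5) were chosen after seeing the data, as were the GC trend of background bins and thinning below. The number with higher H3K4me3 in the Jarid1b shRNA library ranged from 3 to 7 under 13 alternatives, and it was 3 with median scaling, 3 with the promoter GC trend removed and 3 with the GC trend of background bins removed. The median log2 ratio stayed positive, from 0.53 to 1.81. No called gene changed sign, and the ratios of Neurog3 and Neurod1 were negative in each alternative that compared them. The median width of H3K4me3 in the scramble library fell to 500 bases at an adjusted p of 0.01 and to 500 bases in 1 random draw of that library thinned to the depth of the Jarid1b shRNA library. The cause of these changes was not tested. Depth limits most of all Jarid1b replicate 2, where Olig3 and Neurod1 had 2 reads each. No paired analysis was possible because the conditions have 1 library each and the Jarid1b replicate numbers have no counterpart in another group.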
